A study of Mus musculus with 6 samples.

Results

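The CCN family of matricellular genes was examined in mouse myocardium. Its members here are Ctgf, Cyr61, Nov, Wisp1 and Wisp2, which current RefSeq nomenclature calls Ccn2, Ccn1, Ccn3, Ccn4 and Ccn5. They were chosen by symbol as 5 of the 27307 gene symbols on the array, and all 6 of their probes among 56605 non-control probes were kept. Total RNA came from male C57BL/6J Clk4-cKO hearts that had received AAV NEXN-WT (3 samples) or AAV NEXN-S437E (3 samples). In Clk4-cKO mice, exons 3 to 10 of the kinase gene Clk4 are floxed and removed by α-MHC-MerCreMer, a tamoxifen-inducible Cre that the α-MHC promoter restricts to cardiomyocytes, so that other cells of the heart keep Clk4. Per the study's methods, tamoxifen was given to mice 6 to 8 weeks old, and an AAV9 vector with a CMV promoter, which is not restricted to cardiomyocytes, carried mouse Nexn, encoding a Z-disc actin-binding protein, in its wild-type form or as S437E, a mimic of phosphorylation at that serine. By the labels and methods, the Clk4 deletion, tamoxifen and NEXN vector were common to both groups, and hearts with intact Clk4 were not analysed here. The comparison asked how the phosphorylation mimic altered transcript levels relative to wild-type NEXN on this background.

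CCN proteins are secreted into the extracellular matrix, where they bind integrins, heparan sulfate proteoglycans and growth factors rather than forming fibres themselves. CTGF and CYR61 are the best known transcriptional targets of YAP and TAZ acting through TEAD factors, and CTGF is also induced by TGF-β and is widely used as a marker of cardiac fibrosis. WISP1 was found as a gene induced by Wnt signalling, WISP2 lacks the C-terminal cysteine knot that the other members carry, and NOV has been described as a counterweight to CTGF in fibrosis.

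The arrays measured 1 colour on 1 slide with 1 scan. Values below are log2 processed signals minus the 75th percentile of the same array, so that a value of 0 is a spot at that percentile, and levels of different probes are not compared. The 75th percentile lay between 110 and 273 signal units, between 41.9% and 47.8% of probes were well above background, and no spot was saturated. NEXN-WT 1 had the highest and NEXN-S437E 1 the lowest value of both. The number of arrays, 3 per group and each from a separate animal per the study's legend, limits the precision. NEXN-WT 1 stood apart: its mean absolute difference from the other NEXN-WT arrays was 0.38 and 0.44, against 0.25 between NEXN-WT 2 and 3. Results are therefore also given without it. The probe for Clk4 did not pass the test (log2 fold change 0.13, standard error 0.18, limma adjusted p = 0.706), and neither did that for Nexn (0.02, standard error 0.23, limma adjusted p = 0.977). Whether the Clk4 probe lies in the deleted exons was not analysed here. A probe for Esr1, the estrogen receptor, part of which MerCreMer contains, read 3.13, 5.82 and 5.21 with NEXN-WT while no NEXN-S437E array had it well above background, at least 255-fold lower (limma adjusted p = 0.00114). The labels call all 6 hearts Clk4-cKO, and whether the groups carried MerCreMer alike was not tested.

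Across the family, Wisp1 and Wisp2 were lower with NEXN-S437E, Ctgf was lower on every array without passing the test, and Cyr61 and Nov overlapped between the groups. Of the 5 probes tested, 2 passed the thresholds used in the study, a 2-fold difference and an unadjusted p under 0.05, both of them lower. The study applied these thresholds to another test than limma, gene by gene, and with that test of the methods only Wisp1 passed. Over all 22998 tested probes, 1.78% passed in that direction and 0.735% in the other. That balance depended on the filter: without one, 1645 probes passed higher and 624 lower. None of the 5 passed a limma adjusted p of 0.05, where 0.161% of tested probes did, and the limma unadjusted p was under 0.05 for 2 of them, against 17.2% of all. The 3 probes of Wisp1, Wisp2 and Ctgf had every NEXN-S437E array below every NEXN-WT array, an order that 9.17% of tested probes showed. None of the 5 tested probes had the reverse order, which 18.7% of tested probes showed.

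**Figure D1:**
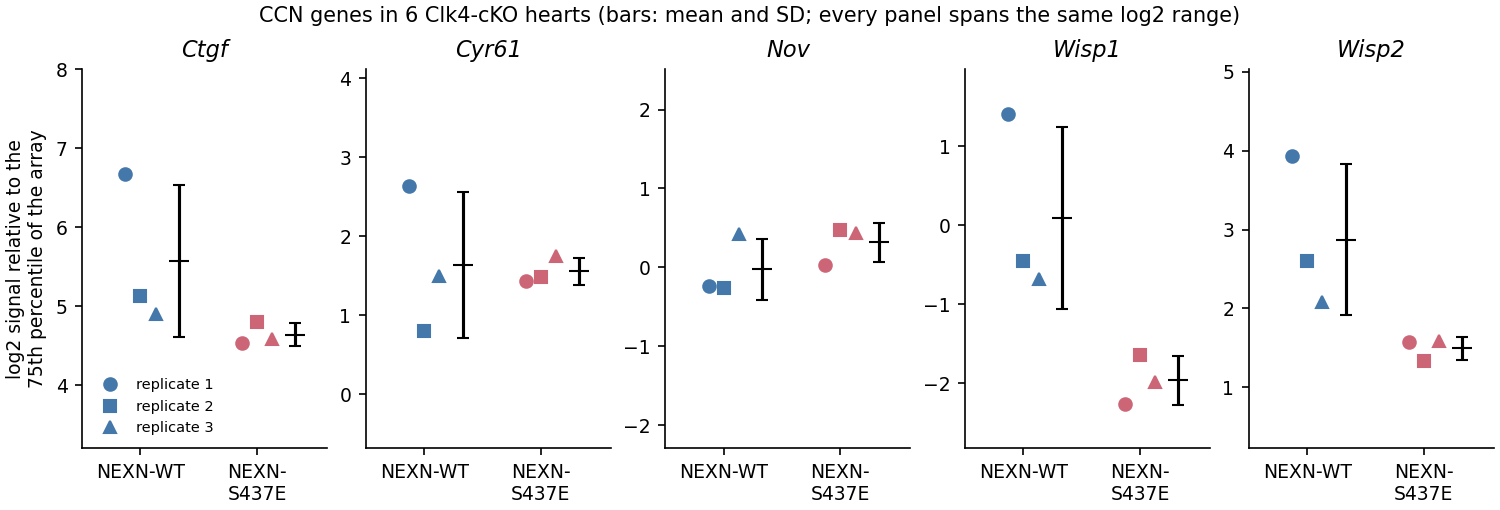
Log2 signal relative to the array's 75th percentile (y axis, the same span in every panel) of the tested probe of each CCN gene in the 3 NEXN-WT (blue) and 3 NEXN-S437E (red) arrays, with group mean and SD as bars. NEXN-WT 1 (circle) is the highest array for Ctgf, Cyr61, Wisp1 and Wisp2 and not for Nov, while the NEXN-S437E arrays lie close together, with an SD between 0.14 and 0.31.

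Wisp1, the Wnt-induced member, differed most in the main fit, the limma comparison of the values defined above. Its tested probe, at chr15:66751555-66751612 (mm9, plus strand), read 1.41, −0.46 and −0.68 on NEXN-WT 1, 2 and 3 and −2.26, −1.65 and −1.99 on NEXN-S437E 1, 2 and 3. The groups did not overlap, and the highest NEXN-S437E array lay below the lowest NEXN-WT array. Group means were 0.09 ± 1.15 and −1.97 ± 0.31 (SD, n = 3 each), a level 4.17-fold lower with NEXN-S437E (log2 fold change −2.06, standard error 0.50, 95% interval −3.22 to −0.90). With normexp background correction the log2 fold change was −1.19, smaller in size than that of Wisp2 (−1.36). That correction adds an offset of 50 units, which compresses differences of dim probes, and signals of this probe were 22.9 to 51.0 units with NEXN-S437E. The main-fit difference passed the study's thresholds (limma unadjusted p = 0.00348) but not the adjustment over all probes (limma adjusted p = 0.136). It ranked 88 from the lowest among the tested log2 fold changes, with 0.383% of probes as low or lower. Without NEXN-WT 1 it was −1.40 (limma adjusted p = 0.0573), still past the study's thresholds.

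The other Wisp1 probe, at chr15:66744444-66744503 (mm9, plus strand), was not well above background on any of the 6 arrays, with signals from 2.67 to 3.58 units, and was not tested; at that level its NEXN-S437E values (−5.78 to −5.13) lay above its NEXN-WT values (−6.25 to −5.85). Its letters are shown because the 2 probes of this gene do not report alike. Read from its first base, the probe has no stop codon in 20 codons, and 4 of them encode cysteine, the residue that the modules of CCN proteins are rich in; these codons are in capitals.
Wisp1 probe A_55_P2739961: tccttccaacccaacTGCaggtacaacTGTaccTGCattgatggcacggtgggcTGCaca
The tested probe has a stop codon in that frame. The Wisp1 result thus rests on 1 probe, measured by 1 spot per array, and placement of either probe in an exon or UTR was not analysed here.

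In the main fit Wisp2, the member without the cysteine knot, followed, although Wisp1 minus Wisp2 within an array overlapped between the groups. Its probe, at chr2:163658717-163658776 (mm9, plus strand), read 3.93, 2.60 and 2.08 with NEXN-WT and 1.57, 1.33 and 1.59 with NEXN-S437E. NEXN-WT 1 was again the highest array, and the groups did not overlap. Means were 2.87 ± 0.95 and 1.5 ± 0.15 (SD, n = 3 each), a level 2.59-fold lower (log2 fold change −1.37, standard error 0.42, 95% interval −2.33 to −0.41, limma unadjusted p = 0.0109, adjusted p = 0.192). Without NEXN-WT 1 the difference was −0.84 and no longer reached 2-fold, although its limma unadjusted p was 0.0041. The slide held all 3 NEXN-WT arrays and NEXN-S437E 1 in its first row and the other NEXN-S437E arrays in its second. With that row as a block, and likewise within the first row alone, the comparison rests on NEXN-S437E 1 against the NEXN-WT arrays, and this lone array is assumed to vary like the others. Wisp2 was then −1.30 (limma unadjusted p = 0.0844 and 0.0959) and Wisp1 −2.36 (limma unadjusted p = 0.0188 and 0.022), and Wisp2 lost its call. It also lost its call with the test of the study's methods, at the same log2 fold change of −1.37.

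Ctgf, the profibrotic member induced by TGF-β and YAP, was the other member whose groups did not overlap. Its probe, at chr10:24318281-24318340 (mm9, plus strand), read 6.67, 5.13 and 4.90 with NEXN-WT and 4.53, 4.80 and 4.58 with NEXN-S437E. All NEXN-S437E arrays were below all NEXN-WT arrays. Means were 5.57 ± 0.96 and 4.64 ± 0.14 (SD, n = 3 each), with a log2 fold change of −0.93 (standard error 0.42, 95% interval −1.90 to 0.04) that did not pass (limma unadjusted p = 0.058, adjusted p = 0.302). Without NEXN-WT 1 it was −0.37 (limma unadjusted p = 0.0422), below 2-fold. The interval covers both no difference and a level lower by more than 2-fold.

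Cyr61, the immediate early member and a YAP target, did not pass the test, and its groups overlapped. Its probe, at chr3:145310187-145310246 (mm9, minus strand), read 2.63, 0.80 and 1.49 with NEXN-WT and 1.43, 1.48 and 1.75 with NEXN-S437E. The NEXN-WT arrays lay on both sides of all NEXN-S437E arrays. The log2 fold change was −0.08 (standard error 0.41, 95% interval −1.02 to 0.86, limma adjusted p = 0.928), and its direction turned to 0.41 without NEXN-WT 1. The RefSeq promoter table (GRCm38.p6) matched 1 of the 5 members, Cyr61. The 250 bases before the start, chr3:145649986-145650235 on the minus strand, are shown because TEAD binding is the classical route by which YAP acts on this gene; the TEAD core is in capitals.
Cyr61 promoter: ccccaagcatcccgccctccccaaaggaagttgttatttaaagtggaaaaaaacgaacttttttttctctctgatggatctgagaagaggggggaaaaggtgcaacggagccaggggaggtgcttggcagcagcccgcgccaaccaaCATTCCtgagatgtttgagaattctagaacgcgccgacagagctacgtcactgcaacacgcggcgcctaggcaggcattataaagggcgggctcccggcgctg
Both strands were searched for 5 motifs. TEAD (GGAATG) matched 1 time, 98 bases before the start, as it did somewhere in 12.6% of 32851 promoters of the same length. A CRE core (TGACG, in 17.8% of promoters) and a TATA motif (TATAAA, in 12.4%) matched 1 time each and overlapped neither TEAD nor each other. SMAD (CAGAC) and AP-1 (TGANTCA) letters were not in this window.

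Nov, often set against Ctgf, was the only member whose fitted difference was positive. Its probe, at chr15:54585236-54585295 (mm9, plus strand), read −0.24, −0.26 and 0.42 with NEXN-WT and 0.03, 0.48 and 0.44 with NEXN-S437E. The groups overlapped, and NEXN-WT 1 did not stand out. The log2 fold change was 0.34 (standard error 0.23, 95% interval −0.18 to 0.87, limma adjusted p = 0.447). It was 0.57 without NEXN-WT 3 (limma unadjusted p = 0.0216) and 0.06 with the slide row as a block.

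**Figure D2:**
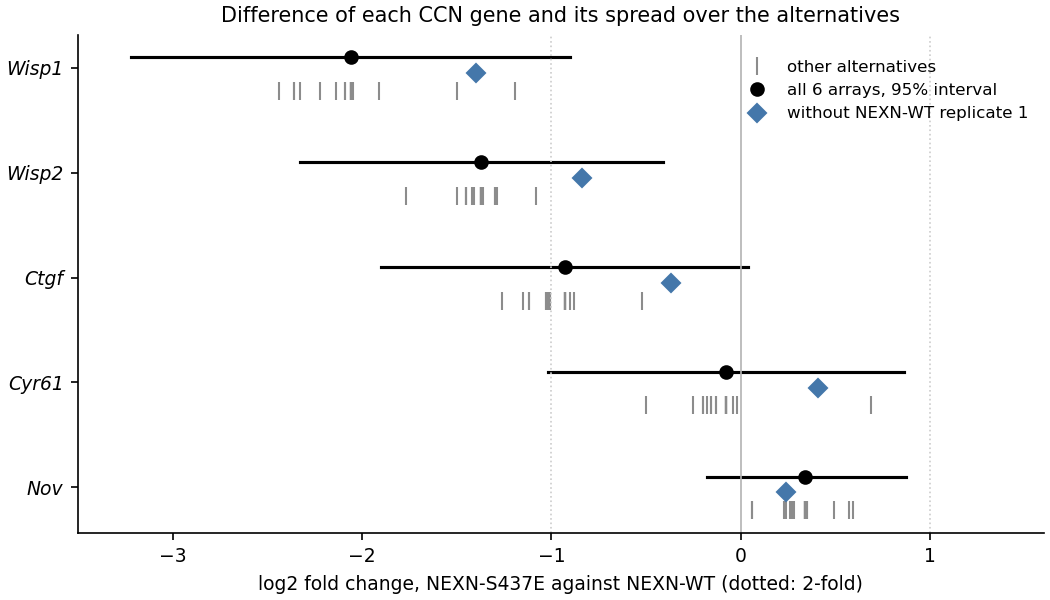
Log2 fold change of NEXN-S437E against NEXN-WT (x axis) for each CCN gene, as fitted on all 6 arrays with its 95% interval (black), without NEXN-WT 1 (blue) and under the other alternatives (grey ticks). All estimates of Wisp1 stay below −1, although its interval reaches −0.90. Wisp2 is −0.84 and Ctgf −0.37 without NEXN-WT 1, and Cyr61 lies on both sides of 0.

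The excess in NEXN-WT 1 was shared by 4 members. Over the mean of NEXN-WT 2 and 3 it was 1.98 for Wisp1, 1.66 for Ctgf, 1.59 for Wisp2 and 1.49 for Cyr61 on the log2 scale, and between 0.309% and 0.778% of tested probes had a higher one. For Nov it was −0.32. The mean of NEXN-WT 2 and 3 was above the mean of NEXN-S437E by 1.40 for Wisp1, 0.84 for Wisp2 and 0.37 for Ctgf, and differed from it by −0.41 for Cyr61 and −0.24 for Nov.

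**Figure D3:**
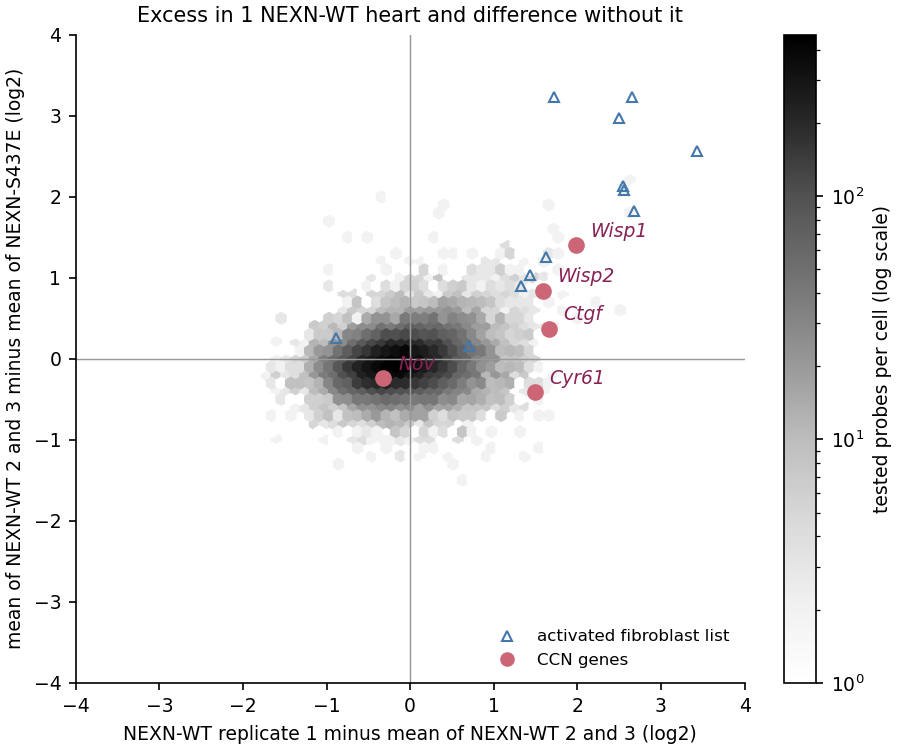
For each tested probe, the excess of NEXN-WT 1 over the mean of NEXN-WT 2 and 3 (x axis, log2) against the mean of NEXN-WT 2 and 3 minus the mean of NEXN-S437E (y axis, log2), with grey cells counting probes on a log scale. Both axes use NEXN-WT 2 and 3. Wisp1, Wisp2, Ctgf and Cyr61 (red) lie to the right, from 1.49 to 1.98, in descending order of y, and 7 of the 12 activated fibroblast markers (open triangles) lie above Wisp1.

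Within an array, differences between members do not depend on the percentile used for scaling, but they do depend on background correction. Among the 10 pairs of members, Ctgf minus Wisp1 was chosen after the values were seen, as the pair in which the larger of the group SDs was smallest, 0.18 in either group. It was 5.26, 5.58 and 5.58 with NEXN-WT and 6.80, 6.45 and 6.57 with NEXN-S437E. NEXN-WT 1 was the lowest array, and the groups did not overlap, as in 7 of the 10 pairs, which share members. The difference between the groups was 1.13 on the log2 scale, with an exact two-sided permutation p of 0.1, the same as for each of the 7 (adjusted over the 10 pairs, 0.143), and 0.1 is the smallest that 3 against 3 allows. With normexp background correction most of it was gone, as Ctgf was then −1.02 and Wisp1 −1.19. That correction adds an offset of 50 units, which compresses differences of dim probes such as that of Wisp1. The loss was thus partly set by this choice.

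Over the 6 arrays, the tested genes most like each member by Pearson's r were Nfkb1, Fzd1 and Frzb for Wisp1 (r = 0.9979, 0.997 and 0.9967), Cpxm1, Enpp1 and Smad1 for Wisp2 (0.9986, 0.9976 and 0.9975) and Srpx2, Mmp19 and Prkab2 for Ctgf (0.9976, 0.9971 and 0.9964). They were Cpq, Slc9a9 and Rcn2 for Cyr61 (0.9853, 0.9847 and 0.984) and Hist1h2bc, Ranbp1 and Vmp1 for Nov (0.9956, 0.9953 and 0.9921). These values describe 6 arrays of 2 groups on 1 slide, searched over 13739 genes.

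Genes that act with the CCN family mostly did not pass. Among TGF-β ligands and receptors, 1 of 9 tested genes was lower and none higher. This was the ligand gene Tgfb3, which read 4.60, 3.56 and 3.33 with NEXN-WT and 2.50, 2.52 and 2.44 with NEXN-S437E (log2 fold change −1.34, standard error 0.31, limma adjusted p = 0.133). None of 13 TGF-β signal transducers and targets, 17 Hippo pathway genes, 17 SRF and MRTF genes or 12 CCN receptors and co-receptors passed in either direction. Of 17 YAP and TAZ targets other than CCN, only the matrix gene Ccdc80 was lower (log2 fold change −1.24, standard error 0.28, limma adjusted p = 0.131). A list of 10 genes held growth factors bound by CCN proteins, their antagonists and 1 transcription factor gene. In it only Aspn, encoding the TGF-β-binding proteoglycan asporin, was lower (−1.76, standard error 0.59, limma adjusted p = 0.217). Of 12 Wnt genes, the receptor gene Fzd2 was lower and also passed the adjustment (−1.37, standard error 0.17, limma adjusted p = 0.0336). Of 5 estrogen-responsive genes beside Wisp2, none other than Esr1, whose probe is described above, passed. Medians of these lists ran from −0.25 to −0.04, against 0.07 over all tested genes, of which 2.15% were called lower and 0.771% higher. Without NEXN-WT 1, Fzd2 and Esr1 alone among these lists still passed, where 1.13% of all tested probes were called lower.

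Markers of activated and general fibroblasts were read beside the CCN genes. Of 12 activated fibroblast markers, 10 were lower, with a median log2 fold change of −2.83, and 9 passed without NEXN-WT 1. Among them Cthrc1 was well above background on 1 NEXN-S437E array and entered the test only through NEXN-WT. Acta2 and Fap did not pass. Postn, encoding the matricellular protein periostin, read 6.18, 3.54 and 3.74 with NEXN-WT and 1.48, 1.40 and 1.63 with NEXN-S437E. Comp, a cartilage and scar matrix gene, had the lowest log2 fold change of the list (−4.11, standard error 0.69, limma adjusted p = 0.0821), and Cilp, another matrix gene, was the marker that passed the adjustment (−3.81, standard error 0.43, limma adjusted p = 0.0221). The summed level of the list was 583, 238 and 206 with NEXN-WT and 140, 96.3 and 122 with NEXN-S437E, in multiples of the 75th percentile signal, and its median excess in NEXN-WT 1 was 2.11. With NEXN-S437E the largest part of that sum was Acta2. Of 9 general fibroblast markers, Col1a2, Mfap5 and Pi16 were lower, 2 of them without NEXN-WT 1, and the other 6 did not pass (median −0.79; summed level 703 to 1030 with NEXN-WT and 586 to 609 with NEXN-S437E). In bulk tissue, fewer cells of a type and less RNA per cell cannot be told apart, and the part of fibroblasts in the CCN values was not tested.

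Markers of other cell types gave mixed counts. Of 10 cardiomyocyte markers, Myh7, the slow myosin heavy chain of the stressed adult mouse heart, was lower (log2 fold change −2.33, standard error 0.38, limma adjusted p = 0.0815) and no other passed. The other 9 had positive log2 fold changes, from 0.23 to 0.60, the list median was 0.42, and its summed level was 1940 to 2320 with NEXN-WT and 2690 to 2770 with NEXN-S437E. Of 8 atrial markers 5 were tested, and only Nppa was lower (−1.39, standard error 0.17, limma adjusted p = 0.0254). Nppa encodes atrial natriuretic peptide and served the study as a marker of hypertrophy. The other 4 did not pass, among them Kcnj3 (0.80) and Myl4 (−0.62). Log2 fold changes of this list were negative for 3 genes and positive for 2. None of 8 endothelial, 9 smooth muscle and pericyte, 7 macrophage, 2 mesothelial or 1 adipocyte markers passed. Of 9 valve, tendon and cartilage markers 5 were tested, and Fmod, Col2a1 and Prg4 were lower, and none of the NEXN-S437E arrays had Col2a1 or Prg4 well above background (at least 1.48-fold and 1.59-fold lower). Their list summed to 6.38 to 16.1 with NEXN-WT and 5.86 to 5.98 with NEXN-S437E, and the largest part of it was a gene that did not pass. Of 8 T cell markers 6 were tested and 4 were lower, among them the receptor subunit gene Cd3d and the kinase gene Lck (log2 fold change −2.49 and −2.07, limma adjusted p = 0.0221 and 0.0192), and the list summed to 2.91 to 4.28 with NEXN-WT and 1.49 to 1.71 with NEXN-S437E. Of 5 B cell markers 2 were tested, and Jchain was lower (at least 4.13-fold, limma adjusted p = 0.00172). Fmod, Col2a1, Prg4, Jchain and the T cell gene Cd3g, like Esr1 and Cthrc1, entered the test only through their detection with NEXN-WT, so the counts of these lists are in part set by the filter. The part of these cells in the CCN values was not tested.

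**Figure D4:**
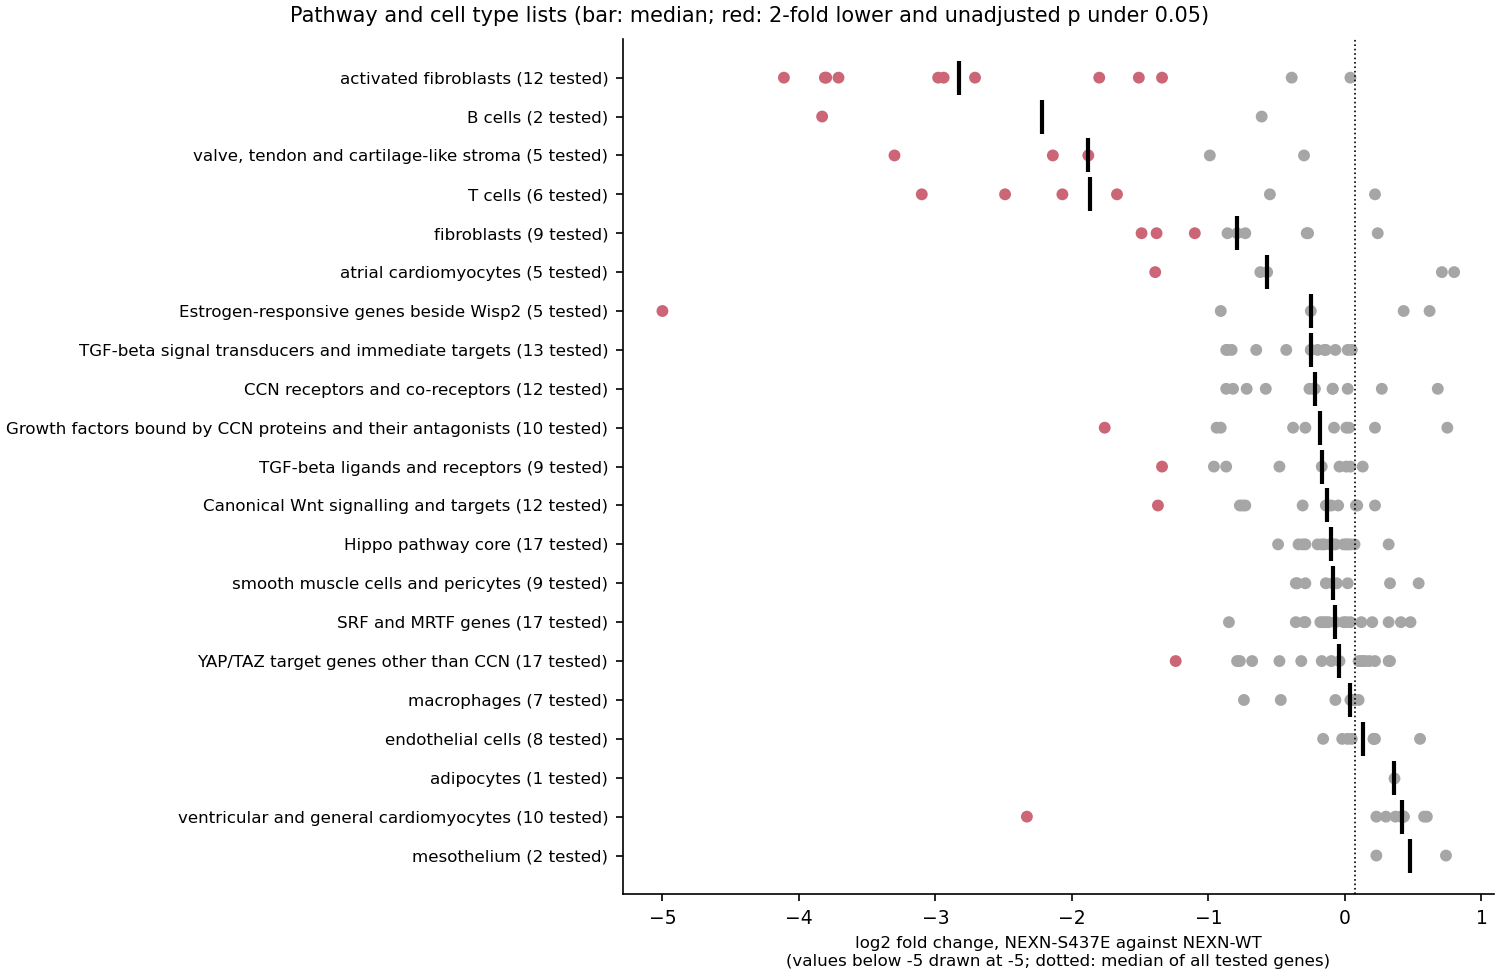
Log2 fold change of NEXN-S437E against NEXN-WT (x axis) for each tested gene of the pathway and cell type lists (rows), with the list median as a bar, genes past the study's thresholds in red and the median of all tested genes, 0.07, as a dotted line. Activated fibroblast markers have the lowest median, −2.83, while the signalling lists centre between −0.25 and −0.04; the point drawn at −5 is Esr1, not well above background with NEXN-S437E.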

How the data were processed

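RNA from 6 hearts was labelled with Cy3 and hybridised to Agilent mouse expression arrays. The deposited intensity values are per-spot processed signals that the authors extracted with Agilent Feature Extraction 10.7.1.1 (submitters' processing notes). The authors also deposited log2 normalized values per probe; the method is not given in the sources used here, and the table's fold changes and p-values were not used. Outlier spots were dropped, spots of a probe averaged, and log2 signals centred on each array's 75th percentile. A probe was tested if every array of at least 1 group had it well above background, using limma 3.58.1 (R 4.3.3) and Benjamini-Hochberg adjustment. A gene was represented by its brightest tested probe. In simulated data for this comparison (22987 probes), limma recovered 98.5% of 200 changed probes at the study's thresholds and 80% after adjustment. There were 87 false calls at the study's thresholds and 6 after adjustment, and 93 and 0 when no probe was changed. The simulation drew independent normal errors with 1 SD per probe for both groups, and planted only shifts beyond 2-fold. In the real arrays NEXN-WT 1 stood apart and member SDs differed between the groups, so these rates may not carry over. Members and lists were chosen with earlier results of these data known. All member probes, up to 3 genes of smallest p per list and 3 genes of most like pattern per member could be named; Postn, Cthrc1, Acta2 and Fap were added after their values were seen. RefSeq tables matched 5 of 5 members by gene ID. Alternatives covered normalization, background correction, filters, test, array weights, slide row, replicate block and leaving out each array; the first slide row alone was chosen after seeing the data.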

Additional observations from a re-analysis of the deposited data

How the results depend on the processing

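Wisp1 kept its direction and its call under all 20 alternatives (log2 fold change −2.44 to −1.19, the last with normexp background correction), and Nov kept its direction in all 20 without reaching 2-fold (0.06 to 0.59). Wisp2 lost its call with the methods' t-test (−1.37), with slide row as a block or the first row alone (−1.30 in both) and without NEXN-WT 1 (−0.84); leaving out each array gave −1.77 to −0.84. The count of 2 members past the study's thresholds was then 1, and 1 to 3 when leaving out each array. Ctgf passed with normexp background correction (−1.02) and without NEXN-WT 2 or 3, with −1.26 to −0.37 over arrays left out. Cyr61 changed sign with array weights (0.69) and without NEXN-WT 1 (0.41), with −0.50 to 0.41 over arrays left out. Array weights, which gave NEXN-WT 1 a weight of 0.196 and NEXN-WT 2 one of 4.22, put 3 members, Wisp1, Wisp2 and Nov, past the adjusted p in place of 0. Over all probes, the 37 past the adjusted p became 7 without a filter, 20 with detection on all arrays, 0 with the methods' t-test, 80 with an intensity trend, 3820 with array weights, 24 with the row block, 0 in the first row and 12 to 128 over arrays left out. The 579 past the study's thresholds became 180 with normexp, 2269 without a filter (1645 higher, 624 lower), 345 with detection on all arrays and 361 to 900 over arrays left out. Same-numbered samples did not deviate together (r = −0.15, −0.03 and −0.18). With 3 arrays per group this shows no pairing but cannot exclude one, and the labels do not state one. The replicate block gave 2 members past the study's thresholds, 0 past the adjusted p, 591 and 37 probes in all, and −2.06 for Wisp1, −1.37 for Wisp2, −0.93 for Ctgf, −0.08 for Cyr61 and 0.34 for Nov. The causes were not tested.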
